A study of Mus musculus with 12 samples.

Results

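Non-cycling IgA antibody-secreting cells were taken from 6 droplet gene expression libraries of sorted antibody-secreting cells, with 1 library for each sex of mice in bone marrow, spleen and thymus. A barcode was kept with at least 1000 unique molecular identifiers (UMIs, counts of captured RNA molecules) outside genes whose symbols start with Igh, Igk or Igl, and with under 10% mitochondrial UMIs. Its leading light-chain V gene also had to hold at least 50% of the light-chain V UMIs, and it had to have no UMI of 6 cycling genes (Mki67, Top2a, Cdk1, Birc5, Ube2c and Ccnb2). A kept cell was a member where Igha, the constant gene of the IgA heavy chain, held at least 60% of the UMIs over 8 heavy constant genes. This gave 275 IgA cells of 4965 kept cells, out of 39949 barcodes called as cells.

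The mice, of C57BL/6 background and 3 months of age, carried Prdm1-eYFP, a fluorescent reporter of a transcription factor of antibody-secreting cells. Both sexes and all tissues share that reporter and the sort gate, which per the labels required high CD138, the reporter and no IgD or CD90.2, with B220 either present or absent. Each sort pooled 3 mice, so every value is that of a pool. A sex and tissue has 1 gene expression library and 1 library of B cell receptor sequences (VDJ). The comparison asks how IgA cells differ from the other kept cells of the same library, and how they differ between tissues and sexes.

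IgA is the antibody class secreted across mucosal surfaces, where it travels joined to the J chain. B cells switch to it in gut-associated tissue under TGF-beta and retinoic acid, through Smad and Runx factors. The resulting plasma cells are known to reach mucosal sites through receptors such as CCR9, which answers a chemokine of the small intestine, CCR10, which answers one made by many mucosal epithelia, and the integrin alpha4-beta7, whose beta chain is encoded by Itgb7. IgA plasma cells also settle in the bone marrow.

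Per-sample values are given with females before males. Bone marrow had 76 and 35 IgA cells, spleen 119 and 15, thymus 10 and 20. Their share of the kept bone marrow cells was 9.38% in females (95% interval, exact binomial, 7.46 to 11.6) and 3.29% in males (2.30 to 4.55). Splenic shares were 6.63% (5.52 to 7.88) and 1.47% (0.825 to 2.41), and thymic shares 14.9% (7.40 to 25.7) and 9.57% (5.94 to 14.4). The female share was above the male share in each tissue, with overlapping intervals in thymus. These intervals cover counting error only. The other 4690 kept cells comprised 4068 IgM cells and 469 IgG cells, both by the same 60% rule, and 153 cells of no such class.

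The members' Igha share had a median of 84.5% over all libraries, from 74.2% in male spleen to 96.3% in female thymus. The median depth outside immunoglobulin genes was 2812 UMIs per IgA cell. Summed over the cells of a library, the IgA depth without immunoglobulin and cycling genes ran from 28030 UMIs in female thymus to 535079 in female spleen. The cells just inside the threshold had Igha shares of 60.6% and 60.9%, and the nearest outside both had 59.1%.

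The VDJ contigs give the isotype from another library. Of 275 members, 221 had a heavy-chain contig and 220 a constant gene call, which was IGHA in 218 and IGHM in 2. Among cells with a call, 4 of 2203 IgM cells, 1 of 336 IgG cells and 19 of 82 cells of no class were called IGHA. The VDJ libraries labelled female shared most barcodes with gene expression libraries labelled male, and the reverse: the VDJ library labelled female spleen shared 2794 of 2893 barcodes with male spleen and 64 with female spleen. VDJ tables were therefore joined to the gene expression library of the same tissue with most shared barcodes, and cells carry the label of their gene expression library. Xist, the RNA of the inactive X chromosome, lay between 714 and 1112 CPM (UMIs of the gene per 1e6 UMIs summed) in the 3 IgA sums labelled female and between 0.00 and 14.6 CPM in those labelled male.

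Barcodes found in the filtered lists of more than 1 library made up 5.34% of all barcodes and 13.3% in female thymus. They include 19 of the 275 members, and 11 of these had the same leading light-chain V gene in the other library. Of the 10 members in female thymus, 4 were such cells. No doublet caller was run, and of the filters that decide which cells are kept only the light-chain filter bears on doublets. The isotype rule for members and the alternatives without cells carrying another cell type's marker bear on them as well.

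Antibody-secreting cell genes were high in the members. Jchain, which encodes the J chain, ranged from 92301 to 139245 CPM over the 6 IgA sums, and Xbp1, a driver of secretory capacity, from 3301 to 5306 CPM. The 12 T and NK cell markers summed to 0.00 to 71.4 CPM in IgA sums against 4.89 to 64.2 CPM in other kept cells, with Cd3e, Cd3d, Cd3g, Cd8a and Cd8b1 at 0 UMIs in every IgA sum. The 13 macrophage and monocyte markers summed to 35.7 to 424 CPM in IgA sums against 42.8 to 333 CPM, with Adgre1, Csf1r, Cd14 and Slc40a1 at 0 in every IgA sum and the sum higher in IgA cells in 1 of 6 libraries, male spleen, where Apoe was at 365 CPM. Apoe, the only one of them tested, was lower in IgA than in other kept cells (log2 fold change -0.99, edgeR adjusted p = 0.0467), and DESeq2 did not call it (adjusted p = 0.59). The 10 neutrophil markers summed to at most 101 CPM and the 8 erythroid markers to at most 27.8 CPM. The 8 epithelial and stromal markers summed to 171 to 277 CPM in IgA sums against 85.7 to 230 CPM, higher in IgA cells in 6 of 6 libraries, nearly all from Epcam and Pecam1, with Krt8, Krt5, Col1a1, Col1a2 and Cxcl12 at 0 in every IgA sum.

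The 5 heavy-chain clones printed here, chosen for their size, isotypes or spread over tissues, show the range of receptors among the members. A clone here is all cells of a sex with the same heavy V gene, J gene and CDR3 nucleotides, the CDR3 being the joint of V, D and J that shapes the antigen-binding site. In the CDR3 sequences that follow, the capitals mark the first and last codons, which encode the conserved cysteine and tryptophan.
Female IGHV1-78 with IGHJ2: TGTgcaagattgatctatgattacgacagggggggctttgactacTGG
Female IGHV1-69 with IGHJ4: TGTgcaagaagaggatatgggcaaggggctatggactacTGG
Male IGHV1-72 with IGHJ4: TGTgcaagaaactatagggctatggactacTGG
Female IGHV1-26 with IGHJ4: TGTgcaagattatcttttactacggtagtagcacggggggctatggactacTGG
Male IGHV3-5 with IGHJ4: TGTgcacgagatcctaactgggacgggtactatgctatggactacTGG

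The IGHV1-78 clone held the most members, 10 in female spleen, all with a leading Iglv1 light chain and 0 mismatches to the germline V segment. It counted 88 joined cells in all, 45 called IGHA, 33 called IGHG and 7 called IGHM. The IGHV1-69 clone had 6 joined cells, all in female thymus and called IGHA, of which 5 are members, each with 15 mismatches. The barcode of 1 of these 5 was found in more than 1 library. The IGHV1-72 clone had 4 members spread over all 3 male tissues with 0 mismatches, and all of its 9 cells were called IGHA. The IGHV1-26 clone had 3 members among 68 cells, 55 of them called IGHG. The IGHV3-5 clone had 3 members among 66 cells that were called IGHM in 21, IGHG in 23 and IGHA in 19, and 2 of its 3 members had a barcode found in more than 1 library.

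Over all 221 members with a heavy chain there were 157 clones, of which 91 held a single joined cell. At least 2 members were found in 38 clones, and 16 clones had members in at least 2 tissues, or 15 without barcodes found in several libraries. Of the 66 clones with at least 2 joined cells, 48 held no cell called IGHM or IGHG. The other clones tie 27 members to clones with an IGHM cell and 26 to clones with an IGHG cell. These sets overlap, since clones such as IGHV1-78 with its 10 members and IGHV3-5 with its 3 hold cells of both kinds. The V genes used most were IGHV1-53 (16 members in 14 clones), IGHV1-72 (14 in 7), IGHV1-78 (13 in 3) and IGHV9-3 (13 in 9). IGHV9-3 took 5.88% of members and 10.6% of other kept cells with a heavy chain, pooled over libraries. A male IGHV9-3 clone with IGHJ2 alone held 889 joined cells, 879 of them in spleen and 855 called IGHM, and it includes 2 members.

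Heavy V segments of IgA cells carried more mismatches to the germline reference on average than those of other kept cells in each library. The mean per segment was 3.34 in IgA against 1.97 in other kept cells of female bone marrow, 3.26 against 2.37 in male bone marrow, 2.13 against 1.48 in female spleen and 3.77 against 1.37 in male spleen. It was 8.50 against 1.04 in female thymus and 2.11 against 1.48 in male thymus. The mean difference was 2.23 ± 2.65 (SD, n = 6 libraries), with an exact two-sided sign-flip permutation p of 0.031, the smallest that 6 libraries allow, and 0.141 after Benjamini-Hochberg adjustment over 9 measures. Without female thymus, where 1 clone holds 5 of 10 members, the difference was 1.19. With 1 cell per clone the mean in the IgA cells of female thymus was 4.17.

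Against the switched IgG cells the order was not the same in every library. IgG cells averaged 5.87 mismatches in male bone marrow and 3.08 in male thymus, above the IgA cells there, and lay below them in the other libraries. Members with 0 mismatches made up 40.3%, and 27.6% had 5 or more, against 56.1% and 15.8% of other kept cells, pooled over libraries. Male bone marrow went the other way, with 51.6% of IgA cells at 0 mismatches against 44.6% of IgM and 13.3% of IgG cells, and a median of 0 in IgA against 1 in IgM and 4.5 in IgG cells.

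**Figure D1:**
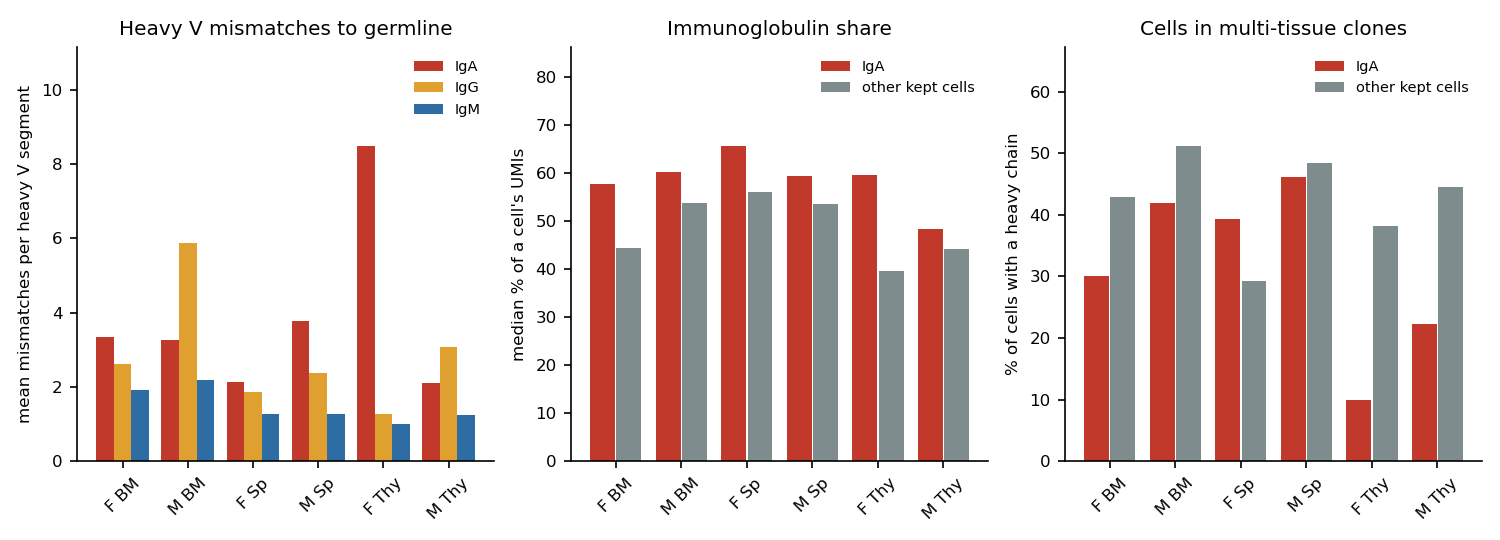
Bars give, per library (F female, M male, BM bone marrow, Sp spleen, Thy thymus), the mean mismatches per heavy V segment in IgA, IgG and IgM cells, the median share of a cell's UMIs from immunoglobulin genes in percent, and the percentage of cells with a heavy chain whose clone was found in more than 1 tissue. IgA cells lie above other kept cells for the immunoglobulin share in all 6 libraries, from 48.3% to 65.6%, and the female thymus bar of 8.50 mismatches stands apart.

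Immunoglobulin genes took a larger share of UMIs in IgA cells than in other kept cells of all 6 libraries. The median share was 57.7% against 44.3% in female bone marrow, 60.2% against 53.6% in male bone marrow, 65.6% against 55.9% in female spleen and 59.3% against 53.6% in male spleen. In thymus it was 59.6% against 39.5% in females and 48.3% against 44.1% in males. The difference averaged 9.95 ± 5.96 percentage points (SD, n = 6). The members were chosen by their Igha UMIs, which are part of this share, so it is given as a description, and nothing is read from its test, though it counts among the 9 measures of the adjustment. IgG cells, which face the same bar, had medians from 46.3% to 59.7%.

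None of the other 8 measures, mismatches included, passed after adjustment. The smallest exact permutation p that 6 libraries allow, 0.031, adjusted to 0.141 here. Not passing therefore does not show that a measure was alike in both classes. A lambda light chain led in 11 of 76, 2 of 35, 30 of 119 and 3 of 15 IgA cells of bone marrow and spleen, and in 0 of 10 and 0 of 20 in thymus, where a count of 0 allows up to 30.8% and 16.8% (exact binomial 95% upper bounds). The mean share was 10.9% ± 10.6 in IgA against 4.30% ± 2.74 in other kept cells (SD, n = 6), with an exact permutation p of 0.188 and an adjusted p of 0.338. The IGHV1-78 clone makes up 10 of the 30 lambda cells in female spleen. Cells in clones found in more than 1 tissue averaged 31.6% of IgA and 42.4% of other kept cells, lower in 5 of 6 libraries (exact permutation p = 0.125, adjusted 0.281). Mean CDR3 length was 41.9 nucleotides in both.

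Runx2, Ccr9, Ccr10, Atp1b1 and Itgb7 had the largest fold changes of the genes named as higher in IgA cells. UMI counts were summed per library over the IgA cells and over the other kept cells and tested with edgeR's quasi-likelihood test, with the library as a block and Benjamini-Hochberg adjustment. A count filter kept genes that reached a minimum level in at least 6 of the 12 sums. A gene below that level in all sums of a class was thus tested only if every sum of the other class reached it. Of 5262 genes tested 199 passed an adjusted p of 0.05 (3.78%), 107 higher in IgA cells (2.03%) and 92 lower (1.75%). The median log2 fold change of all genes was 0.01. DESeq2 called 98 genes, of which 90 were also called by edgeR. In sums over cells, fewer cells that express a gene and less RNA per cell cannot be told apart. With the library as a block, the p-values rest on how much the difference between the classes varies between libraries. That spread came mostly from all genes together, with 60.2 prior against 5 residual degrees of freedom. A gene's own spread had little weight. Whether the same animals gave all 3 organs is not in the labels, and 16 IgA clones had members in at least 2 tissues, so the 6 libraries may not be independent, here and in the permutation tests.

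Ccr10, on chromosome 11 from 101172997 to 101175443 (GRCm38), reached 386 and 389 CPM in IgA cells from bone marrow, 196 and 248 CPM in splenic ones, 285 and 52.7 CPM in thymic ones. In other kept cells it lay between 7.14 and 21.8 CPM. The groups did not overlap, and the male thymus was the low IgA library. Ccr10 was below the filter level in all sums of other kept cells. Both the lack of overlap and the shared direction over libraries were therefore fixed by the filter. The log2 fold change was 4.11 ± 0.19 (SE), with an edgeR adjusted p of 2.71e-28, and IgA cells were higher in 6 of 6 libraries. A Ccr10 UMI was found in 45.8% of IgA cells and 5.76% of other kept cells, or 21.1% and 1.26% with each cell thinned to 1000 UMIs. The mean of the library medians of depth was 2961 UMIs in IgA and 2846 UMIs in other kept cells, so the lower share is the background beside which the higher one stands.

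Ccr9, on chromosome 9 from 123678439 to 123784330, stood at 83.4 and 195 CPM in marrow IgA cells, 59.8 and 58.5 CPM in splenic ones, 285 and 39.5 CPM in thymic ones. Other kept cells held 0.00 to 4.61 CPM. Female thymus was highest and male thymus lowest, and the groups did not overlap, which the count filter fixed as for Ccr10. The male thymus level rests on 1 of 20 IgA cells with a Ccr9 UMI, beside 1 of 25 IgG cells there. The log2 fold change was 4.53 ± 0.28, with an edgeR adjusted p of 9.19e-22. A Ccr9 UMI was seen in 20.4% of IgA cells and 1.49% of the others, or 10.6% and 0.45% after thinning.

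Itgb7, on chromosome 15 from 102215995 to 102231944, measured 240 and 299 CPM in marrow IgA cells, 226 and 482 CPM in splenic ones and 464 and 698 CPM in thymic ones, against 36.3 to 85.7 CPM in other kept cells. Its highest level was in the male thymus, where Ccr10 and Ccr9 were lowest. Only 4 of the 20 IgA cells there had an Itgb7 UMI, the lowest share of the 6 IgA libraries (at least 42.1% in the others), so few cells carried that level. The log2 fold change was 2.82 ± 0.17 (edgeR adjusted p = 4.22e-22), and the call was lost where all classes had to reach a 90% share, at a log2 fold change of 1.10 and an adjusted p of 0.641. Ccr10 and Ccr9 UMIs were seen together in 27 of the 275 IgA cells, Ccr10 without Ccr9 in 99, Ccr9 without Ccr10 in 29 and neither in 120. In 80 cells none of Ccr10, Ccr9 and Itgb7 had a UMI, 15 of them among the 20 IgA cells of male thymus.

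**Figure D2:**
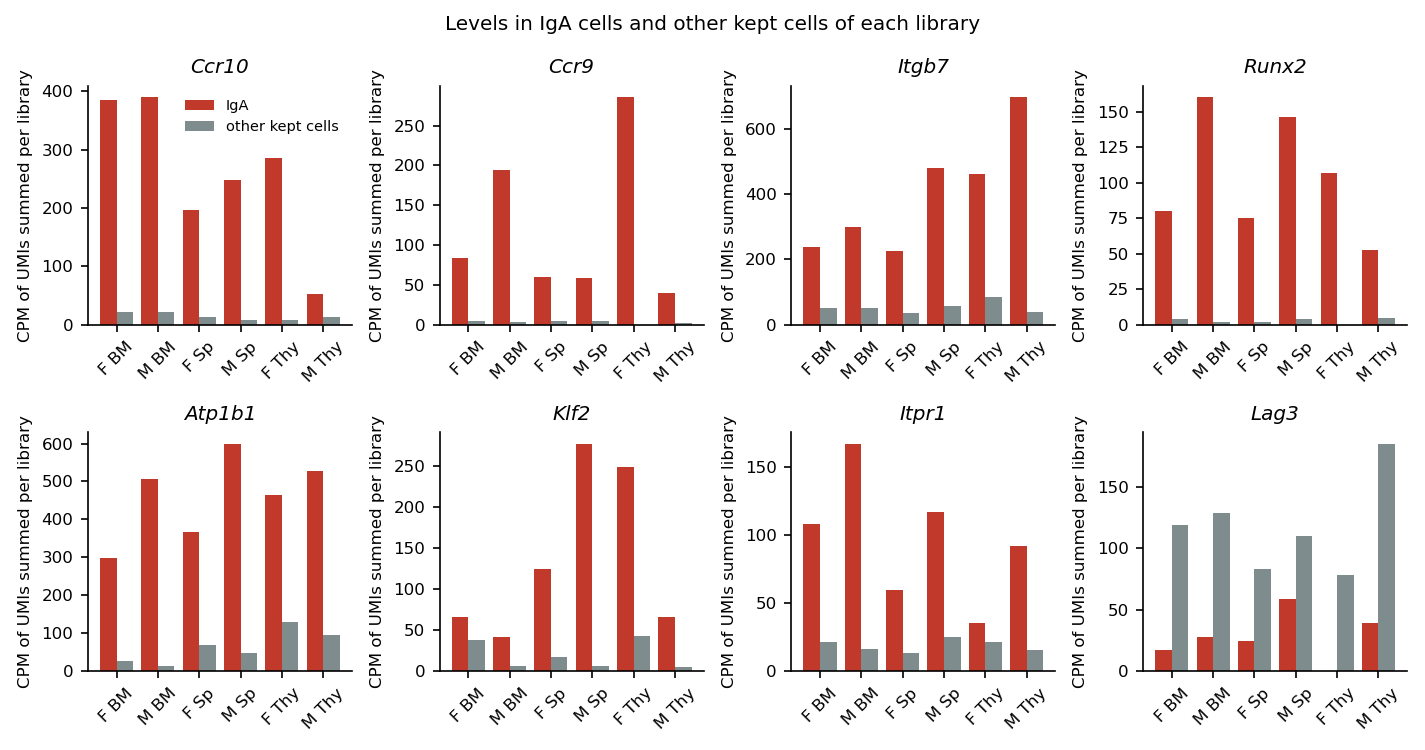
Bars give CPM of UMIs summed over the IgA cells (red) and the other kept cells (grey) of each library (F female, M male, BM bone marrow, Sp spleen, Thy thymus) for 8 genes, each panel with its own axis from 0. IgA bars stand above the grey bars in every library for the first 7 genes, and below them for Lag3; for Ccr10 they run from 52.7 to 389 CPM.

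Of the 22 homing receptors and integrins listed, 12 could be tested, 6 were higher in IgA cells and 2 lower, beside 2.03% and 1.75% of all genes, with a median log2 fold change of 0.40 against 0.01 for all genes. The list includes Ccr10, Ccr9 and Itgb7, known beforehand as markers of these cells, so its count is a description only. Besides the 3 receptors, Klf2, a transcription factor that drives lymphocyte exit from tissue, rose by 2.69 ± 0.30 (log2, edgeR adjusted p = 2.63e-10). Klf2 ranged from 41.7 to 278 CPM in IgA cells and from 4.62 to 42.8 in the others, and its groups just overlapped. With a leading light chain of at least 90% edgeR did not call Klf2 (log2 fold change 2.04, adjusted p = 0.0671). Itga4, the alpha4 partner chain of Itgb7, rose by 0.61 ± 0.17 (edgeR adjusted p = 0.0183), and Selplg, the ligand of selectins, by 0.58 ± 0.16 (adjusted p = 0.0202). Cxcr4, which retains plasma cells in bone marrow, fell by 1.42 ± 0.38 (adjusted p = 0.0161) and Cxcr3, a receptor for interferon-induced chemokines, fell by 0.92 ± 0.26 (adjusted p = 0.0304). DESeq2 did not call Itga4, Cxcr4 or Cxcr3. Against IgM cells alone Cxcr3 was not called. Against IgG cells 8 genes of the list could be tested. Itgb7 alone was higher there and Cxcr3 alone lower, beside 3.81% and 3.86% of all genes, with a list median of -0.01. Cxcr3 was below the filter level in all IgA sums of that comparison, so its direction there was fixed by the filter. Gpr15, another mucosal homing receptor, was below the count filter, at 0.00 to 14.6 CPM in IgA cells and 0.00 to 0.27 CPM in the others, and was not tested.

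Runx2 encodes a Runt-family transcription factor known from bone formation, whose family takes part in switching to IgA, and lies on chromosome 17 from 44495987 to 44814797. Its IgA levels were 79.9 and 160 CPM in marrow, 74.8 and 146 CPM in splenic and 107 and 52.7 CPM in thymic cells, against 0.00 to 4.62 CPM in other kept cells. The IgA libraries all lay above the others, which the count filter fixed as for Ccr10. The log2 fold change was 5.24 ± 0.28 (edgeR adjusted p = 1.36e-24). With cells thinned to 1000 UMIs, a Runx2 UMI was found in 11.6% of IgA cells and 0.32% of other kept cells; unthinned, 27.3% of IgA cells had one.

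Among the 21 listed genes of TGF-beta and retinoid signalling and class switching 6 could be tested, and Runx2 and Tgfbr1 were the 2 called, both higher, beside 2.03% of all genes, with a list median of 0.49. Runx2 passed the count filter only through its IgA sums, and the list was chosen with earlier results of these data known. Tgfbr1, a TGF-beta receptor chain, rose by 0.86 ± 0.20 (edgeR adjusted p = 0.0039; DESeq2 adjusted p 0.0729). Smad7 and Ahr were too low to be tested.

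Atp1b1, the beta subunit of the sodium-potassium pump, on chromosome 1 from 164437109 to 164458355, was at 299 and 508 CPM in marrow IgA cells, 366 and 599 CPM in splenic ones and 464 and 527 CPM in thymic ones. Other kept cells held 14.6 to 128 CPM, with no overlap, and the log2 fold change was 3.28 ± 0.20 (edgeR adjusted p = 9.19e-22). Itpr1, a calcium channel of the endoplasmic reticulum, ranged from 35.7 to 167 CPM against 13.0 to 25.2 CPM, a log2 fold change of 2.53 ± 0.23 (adjusted p = 3.17e-13). Other kept cells hardly reached the filter level for Itpr1, so the separation of these ranges was largely set by the filter.

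The other genes named as higher were Cdc14b, a phosphatase (1.93), Uck2, a uridine-cytidine kinase (1.48), Sec14l1 (1.43), Gimap7, a GTPase of lymphocytes (1.42), and 5830418P13Rik (1.32), all as log2 fold changes with edgeR adjusted p-values of at most 4.62e-04. Each was higher in IgA cells in 6 of 6 libraries. These 12 genes and 12 lower ones were named by size from 103 genes that passed the test, averaged at least 20 CPM and had 1 direction in every library.

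Bank1, Fcmr, Blk and Grap were lower in IgA cells. The 21 residual B cell genes listed summed to 11176 to 15895 CPM in IgA sums and 16152 to 24253 CPM in other kept cells, lower in IgA cells in 6 of 6 libraries. Bank1, a scaffold of B cell receptor signalling, was at 3.47 and 6.95 CPM in marrow IgA cells, 1.87 and 0.00 CPM in splenic ones and 0.00 and 26.3 CPM in thymic ones, against 28.9 to 69.3 CPM in other kept cells. The groups did not overlap, and Bank1 fell by 3.02 ± 0.48 (edgeR adjusted p = 5.35e-06). Bank1 was below the filter level in every IgA sum but that of male thymus, so it was tested through the other kept cells. Its lack of overlap and its shared direction were thus largely set by the filter. Fcmr, the Fc receptor for IgM, fell by 1.71 ± 0.29, Blk, a kinase downstream of the B cell receptor, by 1.46 ± 0.28, and Grap, an adaptor protein, by 1.58 ± 0.35. Of the alternatives that tested them, Bank1 kept its call in 11 of 12, Fcmr in 16 of 18, Blk in 15 of 17 and Grap in 10 of 13. With cells carrying a UMI of a B cell marker such as Ms4a1 or Pax5 left out of both classes Fcmr was no longer called, at a log2 fold change of -1.22 and an adjusted p of 0.0929. That alternative called 136 genes in all, 111 of them among the 199.

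Lag3, an inhibitory receptor found on T cells and on some plasma cells, was at 17.4 and 27.8 CPM in marrow IgA cells, 24.3 and 58.5 CPM in splenic ones and 0.00 and 39.5 CPM in thymic ones. Other kept cells held 78.5 to 185 CPM, above all IgA libraries. Lag3 fell by 2.02 ± 0.26 (edgeR adjusted p = 5.62e-08). IgG cells were low too, with a Lag3 UMI in 7.89% of them against 6.55% of IgA and 32.3% of IgM cells, or 1.92%, 2.91% and 11.8% after thinning. Lag3 was below the count filter in the comparison with IgG cells and has no test there. Tigit, another inhibitory receptor, rose by 1.17 ± 0.19 (adjusted p = 6.87e-06), higher in 5 of 6 libraries. Lag3 and Tigit were the only 2 called of the 7 regulatory cytokine and checkpoint genes tested, of 17 listed, beside 2.03% of all genes higher and 1.75% lower. Of the 7 tested, 3 had a positive log2 fold change, and the list median was -0.30.

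Spon1, a secreted matrix protein, fell by 2.12 ± 0.24 (edgeR adjusted p = 1.02e-09), from 74.7 to 414 CPM in other kept cells to 13.2 to 143 CPM in IgA cells. The remaining lower genes were Gpr18 (-1.98), a lipid-sensing receptor, Pld4 (-1.94), a nuclease of endosomes, Ggh (-1.89), a folate hydrolase, Nedd4 (-1.86), a ubiquitin ligase, Chst1 (-1.59), a sulfotransferase, and Gm8369 (-1.47), as log2 fold changes. All 12 were lower in IgA cells in 6 of 6 libraries, which was a condition for being named. Grap, at no more than 20.9 CPM in IgA cells, was below the filter level in all IgA sums. Its direction was therefore fixed by the filter. Ggh was not called with cells carrying another cell type's marker left out (log2 fold change -0.75, adjusted p = 0.554). Gm8369 kept its call in 5 of 10 alternatives. Among others it was not called by DESeq2 (adjusted p = 0.153) or by edgeR without female bone marrow (adjusted p = 0.115).

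Of the plasma cell identity list, all 18 genes found could be tested, 3 were higher (Cd28, Tnfrsf17 and Cd93) and 1 lower (Zbtb20), beside 2.03% and 1.75% of all genes, and the median log2 fold change was 0.10. Cd28, a costimulatory receptor that supports plasma cell survival, rose by 0.81 ± 0.16 (edgeR adjusted p = 4.49e-04), and Tnfrsf17, the receptor BCMA for the survival factor APRIL, by 0.72 ± 0.18 (adjusted p = 0.00701). Against IgM cells alone Cd28 was called, and Tnfrsf17 (adjusted p = 0.0564) and Cd93 (adjusted p = 0.0714) were not, while Bcl2 was lower (log2 fold change -0.70, adjusted p = 0.0146). Prdm1 (-0.06), Xbp1 (0.41), Sdc1 (0.11), Irf4 (0.45), Jchain (0.53) and Mzb1 (-0.06) did not pass the edgeR test. Of 13 survival genes tested, a list that shares Cd28 and Tnfrsf17 with the first, edgeR called these and Epcam, all higher, with a median of 0.00.

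For the lists that follow, 2.03% of all genes were called higher and 1.75% lower. Of 13 residual B cell genes tested 3 were lower (Bank1, Ms4a1 and Cd37) and 1 higher (Ebf1), with a median of -0.40. Among 25 genes of endoplasmic reticulum folding and the unfolded protein response only Ddit3 was called, lower by edgeR, with a median of -0.04. Of 13 interferon-stimulated genes tested Bst2 was called, higher, with a median of 0.19. Of 9 immediate early genes tested Junb and Jun were lower, with a median of -0.12. None of the 4 tested genes associated with B-1 and marginal zone cells was called, at a median of -0.34.

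The 199 calls depend on single libraries in number. Without female spleen, the library with the largest number of IgA cells, 49 genes were called, all among the 199, and without female thymus, the smallest sum, 351 were called, 194 of them among the 199. All 24 named genes kept their direction in every alternative in which they were tested.

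**Figure D3:**
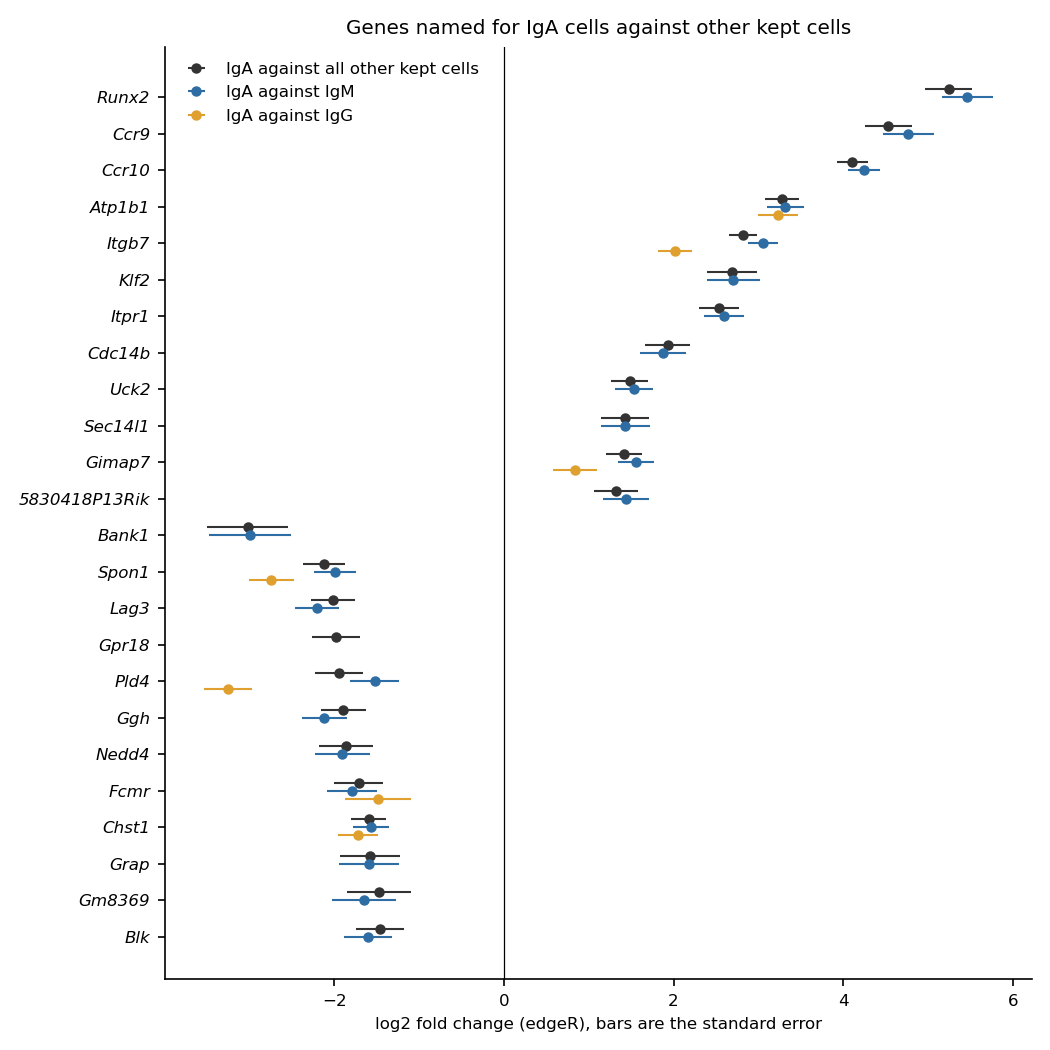
Points give edgeR log2 fold changes with their standard errors for the 24 genes named for IgA cells against all other kept cells, and the same genes against IgM and IgG cells where the gene passed the count filter. The black and blue points lie close together, from 5.24 for Runx2 to -3.02 for Bank1 against all other kept cells.

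Against IgM cells alone, which make up most other kept cells, 231 of 5230 genes were called (4.42%), 121 higher (2.31%) and 110 lower (2.1%). The leading genes were again Runx2 (log2 fold change 5.47 ± 0.30), Ccr9 (4.77 ± 0.30), Ccr10 (4.24 ± 0.19), Atp1b1 (3.32 ± 0.22), Itgb7 (3.06 ± 0.18) and Itpr1 (2.60 ± 0.24). Lag3 fell by 2.21 ± 0.26 with an edgeR adjusted p of 1.02e-08. This comparison shares the IgA sums with the one against all other kept cells, so the 2 are not independent.

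Against IgG cells, the other switched class, 163 of 2126 genes were called (7.67%), 81 higher (3.81%) and 82 lower (3.86%). Atp1b1 rose by 3.23 ± 0.24, from 14.4 to 161 CPM in IgG cells, and Itgb7 by 2.02 ± 0.20, from 52.7 to 125 CPM in IgG cells (edgeR adjusted p = 2.7e-11 and 1.5e-08). Runx2, Ccr9 and Ccr10 were below the count filter of this smaller comparison and have no test in it. Their levels in IgG cells were 0.00 to 1.35 CPM for Runx2, 0.00 to 17.2 for Ccr9 and 3.44 to 40.4 for Ccr10, in each case below the lowest IgA library. Tnfrsf17 was at 451.7 and 299 CPM in marrow IgA cells, 574 and 278 CPM in splenic ones and 785 and 316 CPM in thymic ones, and at 30.5 to 86.0 CPM in IgG cells. The groups did not overlap, and Tnfrsf17 rose by 2.67 ± 0.20 (adjusted p = 2.7e-11).

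Txndc5, a disulfide isomerase of the secretory pathway, was also higher than in IgG cells, at 4475 to 7846 CPM against 1586 to 2705 CPM, a log2 fold change of 1.67 ± 0.19 (edgeR adjusted p = 2.5e-07). In other kept cells as a whole Txndc5 lay between 4442 and 6451 CPM. Bcl2, an inhibitor of cell death (1.61), and Zfp36l1, an RNA-binding decay factor (1.20), were the other higher genes named. Beside 3.81% of all genes higher and 3.86% lower, of 17 plasma cell identity genes tested 5 were higher than in IgG cells (Tnfrsf17, Cd28, Irf4, Jchain and Cd93) and 2 lower, Mzb1 (-0.63) and Creld2 (-0.85), both proteins of the endoplasmic reticulum. Of 24 genes of folding and the unfolded protein response edgeR called 2, a share near the 7.67% of all genes, both lower, Creld2 and Manf (-0.75), and 4 had a positive log2 fold change. Jchain rose by 1.11 ± 0.23 (adjusted p = 0.00229) and Irf4, a transcription factor of plasma cell fate, by 0.85 ± 0.17 (adjusted p = 0.00131). Lower than in IgG cells were Pld4 (-3.25), Cxcr3 (-2.62), Chst1 (-1.72), Grn, a lysosomal growth factor precursor (-1.51), Fcmr (-1.48) and Napsa, an aspartic protease (-1.44). Fcmr kept its call in 3 of 6 alternatives, and lost it without male bone marrow (adjusted p = 0.057), without male spleen (0.0659) and without barcodes found in several libraries (0.0893). Cxcr3 was at 17.4 to 41.1 CPM in IgA and 91.5 to 250.1 CPM in IgG cells, and Fcmr at no more than 63.5 CPM in IgA cells. Both genes were below the filter level of this comparison in all IgA sums. Their direction and their lack of overlap were therefore fixed by the filter.

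Of 9 residual B cell genes tested 6 were lower in IgA than in IgG cells, against 3.86% of all genes, with a median of -0.87: H2-Ab1, H2-Eb1, H2-Aa and Cd74, which serve antigen presentation, Cd37, a tetraspanin, and Cd79b, a chain of the B cell receptor. H2-Ab1 fell by 1.27 ± 0.20 (edgeR adjusted p = 5.21e-05). Whether the contrasts with IgM and with IgG cells differ from each other was not tested.

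Levels in cells below the threshold did not follow 1 order across the genes. The 30 cells with an Igha share of 60 to 70% held 294 CPM of Ccr10, 492 of Itgb7, 147 of Runx2 and 514 of Atp1b1. Among members the 75 cells with 90 to 100% were lowest in the last 3 genes, at 153 CPM of Itgb7, 67.6 of Runx2 and 309 of Atp1b1, with 279 of Ccr10. The 15 cells with 50 to 60% held 276 CPM of Ccr10, 169 of Itgb7 and 91.9 of Runx2 and Atp1b1 alike, on 6 to 18 UMIs each, which for Atp1b1 is within the range of other kept cells. Of the 14 among these 15 cells with a constant call, 13 were IGHA. The 12 cells with 40 to 50% held 88.5 CPM of Ccr10, 708 of Itgb7 and 413 of Atp1b1, and the 35 cells with 10 to 40% held 60.1, 260.3 and 220.3 CPM. The 4628 cells under 10% held 14.7 CPM of Ccr10 and 2.10 of Runx2. The median free RNA share, estimated from light-chain V UMIs outside the leading gene, was 19.6% in the cells at 60 to 70% and 6.20% in those at 90 to 100%.

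**Figure D4:**
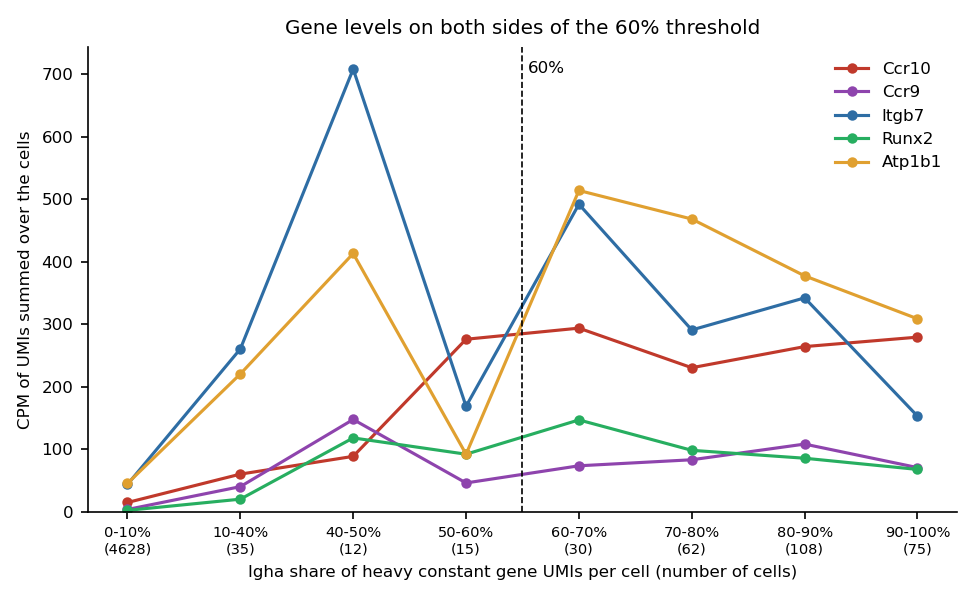
Lines give the CPM of 5 genes in UMIs summed over all kept cells of a range of Igha shares, with the number of cells under each range and the 60% threshold dashed. Ccr10 is at 276 CPM just below the threshold and 294 CPM just above it; the ranges from 40 to 60% hold 12 and 15 cells.

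Tissues were compared among the IgA sums in 1 additive model of sex and tissue with 2 residual degrees of freedom. The estimated prior degrees of freedom were infinite, so a gene's own spread had no weight, and edgeR called more genes than DESeq2 in each contrast. Of 2012 genes tested, thymus and bone marrow differed in 26 (1.29%), 17 higher in thymus (0.845%) and 9 lower (0.447%), against 8 by DESeq2. Spleen and bone marrow differed in 15 (0.746%), 10 higher in spleen (0.497%) and 5 lower (0.249%), against 3 by DESeq2. Thymus and spleen differed in 8 (0.398%), 5 higher in thymus (0.249%) and 3 lower (0.149%), against 3 by DESeq2. A tissue has 2 pools, and the IgA cells of thymus number 30 in all. In this model 2 sums at the filter level were enough for a gene to be tested. A gene could thus be tested only through the sums of 1 tissue or sex where it was high.

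Ly6c2, a surface protein raised by interferon, was the clearest difference of thymic IgA cells. It was at 21941 and 4581 CPM in thymic IgA cells, 778 and 278 CPM in marrow ones and 1097 and 351 CPM in splenic ones. Both thymic libraries lay above all others, in other kept cells too (7523 and 7265 CPM in thymus, 538 to 1705 elsewhere). The log2 fold change against bone marrow was 4.29 ± 0.41 (edgeR adjusted p = 5.4e-22; DESeq2 1.91e-26), and against spleen 3.99 ± 0.41. Without cells that carried a B cell marker UMI, where the female thymus has under 10 cells and drops out, the log2 fold change against bone marrow was 1.58 (adjusted p = 0.0332) and that against spleen was no longer called (adjusted p = 0.124).

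Interferon-stimulated genes were higher in thymic than in bone marrow IgA cells in 4 of 9 tested, beside 0.845% of all genes, with a median log2 fold change of 0.68 against -0.09 for all genes. Other kept cells had the same order, with the 24 listed genes summing to 6153 and 7398 CPM in thymus and 4272 and 4238 CPM in bone marrow. In IgA cells the sums were 11309 and 5845 CPM in thymus, the male one below that of the other kept cells, and 3878 and 2949 CPM in bone marrow. Ifi27l2a rose by 3.02 ± 0.42 (edgeR adjusted p = 7.68e-10), from 347 and 236 CPM in marrow cells to 7100 and 869 CPM in thymic ones, so the female thymus carried most of it. Isg15 (3.41 ± 0.72) and Irf7 (3.09 ± 0.69), a transcription factor of the interferon response, were also called, but Isg15 kept its call in 4 of 10 alternatives and Irf7 in 5 of 10. Isg15, a ubiquitin-like modifier, was also higher in spleen, at 202 and 58.5 CPM against 17.4 and 13.9 in bone marrow. Without barcodes found in several libraries, which drops female thymus, Ifi27l2a was not called (log2 fold change 0.85, adjusted p = 0.687).

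Vim, the intermediate filament vimentin, separated bone marrow from spleen. Marrow IgA cells held 27.8 and 76.5 CPM, splenic ones 348 and 555 CPM and thymic ones 642 and 105 CPM. Other kept cells held at most 85.7 CPM in any library. Against bone marrow Vim rose in spleen by 3.08 ± 0.43 (edgeR adjusted p = 5.31e-10). Anxa2, a membrane-binding protein, was at 3.47 and 6.95 CPM in bone marrow and 170.1 and 219 in spleen, a log2 fold change of 5.02 ± 0.69 (adjusted p = 5.31e-10). Vim and Anxa2 were below the filter level in both bone marrow sums, so they were tested only through sums where they were high. The marrow levels of Anxa2 rest on very few UMIs, and so does the size of its fold change. The MHC class II genes H2-Aa (2.44 ± 0.38) and H2-Eb1 (1.66 ± 0.37) rose as well. Vim was not called without female bone marrow (adjusted p = 0.243) or without male spleen (0.150), nor Anxa2 without female bone marrow (0.0626) or female spleen (0.421).

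Lower in thymus than in bone marrow were Ly6k, at 552 and 139 CPM in bone marrow and 0.00 and 26.3 in thymus (log2 fold change -3.82 ± 0.74), Prg2 (-2.12), a protein of eosinophil granules, Glipr1 (-2.01), Vpreb3 (-3.69), Gm42047 (-2.85) and Mt1, a metallothionein. Vpreb3 kept its call in 1 of 9 alternatives, Gm42047 in 1 of 10 and Glipr1 in 5 of 11. Mt1 rests on 1 library, male bone marrow, at 3846 CPM, with 177 in female bone marrow and 0.00 to 129 elsewhere. Ccr10 was lower in thymus as well (log2 fold change -1.79 ± 0.49, edgeR adjusted p = 0.0254), and DESeq2 did not call it (0.428). Between thymus and spleen, Gm4070 (2.24) and Gnai2 (1.68) were higher in thymus, and Crip1 (-2.06) and Mzb1 (-1.56) lower. Gnai2 kept its call in 1 of 11 alternatives, Gm4070 and Mzb1 in 6 of 11 each.

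**Figure D5:**
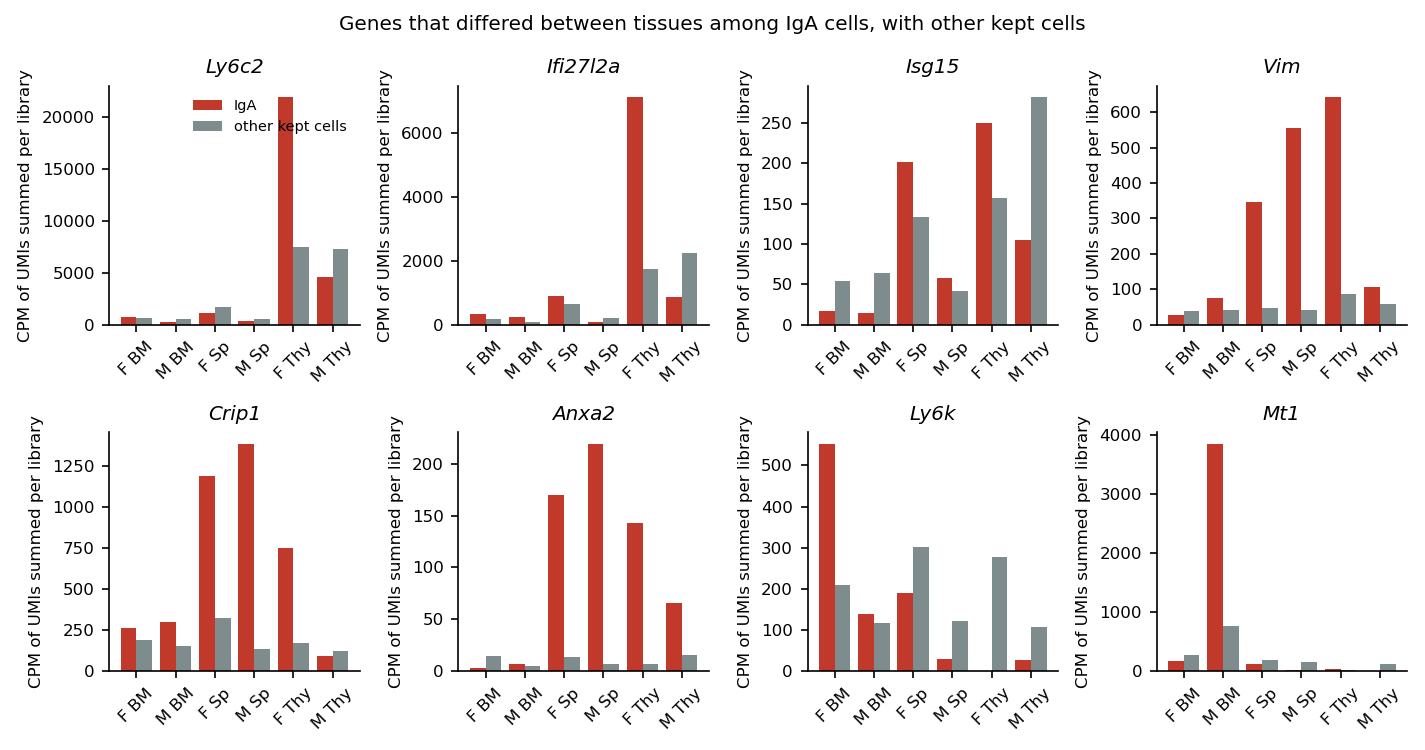
Bars give CPM in the IgA cells (red) and the other kept cells (grey) of each library (F female, M male, BM bone marrow, Sp spleen, Thy thymus) for 8 genes named in the tissue contrasts, each with its own axis from 0. Ly6c2 is high in thymus in both classes, at 21941 and 4581 CPM in the IgA cells, whereas Vim, Crip1 and Anxa2 in IgA cells are higher in both spleen libraries and female thymus than in bone marrow.

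Whether the IgA difference itself depends on tissue was tested as an interaction, which 13 of 5262 genes passed (0.247%) and DESeq2 found for Ltb alone. For Vim the IgA difference was larger in spleen than in bone marrow by 2.96 and in thymus by 1.56 (log2, edgeR adjusted p = 8.7e-06). Klf2 and Crip1 had the same order, whereas the Atp1b1 difference was smaller than in bone marrow by 1.43 in spleen and 2.08 in thymus (adjusted p = 0.00759), with IgA cells higher in 6 of 6 libraries. The IgA differences of Ccr10, Ccr9, Itgb7 and Runx2 did not pass this test. Without male thymus edgeR called 0 genes, with 490 at an unadjusted p under 0.05.

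Sexes differed in 75 of 2012 genes among IgA sums (3.73%), 7 higher (0.348%) and 68 lower (3.38%) in males, and DESeq2 called 35. Xist, which marks the sex of the libraries, led the lower ones (log2 fold change -7.96 ± 0.64). Ribosomal protein genes, a group chosen after its values were seen, made up 37 of the 68, with a median of -0.94 over 78 tested. Rps28 was at 1619, 1112 and 2105 CPM in females and 542, 541 and 513 in males. Ifitm3 (-2.87), an antiviral membrane protein, and Ly6d (-1.72), a surface protein of B lineage cells, were also lower. Higher in males were Reln (1.86), Gm26917 (1.62), Nbas (1.60), Dmxl1 (1.27), Bod1l (1.19) and Ern1, the endoplasmic reticulum stress sensor (1.08). Bod1l kept its call in 0 of 10 alternatives, Dmxl1 in 1 of 10 and Ern1 in 3 of 10, against 9 of 11 for Gm26917. Without female spleen 3 genes were called, and without barcodes found in several libraries 11, so the sex contrast among so few cells rests on single libraries, and sex cannot be told apart from pool and well.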

How the data were processed

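Deposited filtered matrices hold raw counts of UMIs per gene and barcode, written by Cell Ranger 6.0.2 per the file headers, and 5' v1.1 libraries were aligned to mm10 (GRCm38) per the submitters' processing notes. The deposited VDJ tables give contigs with UMI counts. Unfiltered matrices served to profile free RNA only. Gene positions and germline V segments came from GENCODE M21 (GRCm38).

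The members and gene lists were chosen with earlier results of these data known. Genes starting Igh, Igk or Igl (395) and the 6 cycling genes were left out of sums, library sizes and tests, a sum needed at least 10 cells, and CPM is computed over the remaining UMIs. Sums were tested with edgeR 4.0.16 (TMM scaling, filterByExpr, quasi-likelihood F-test, R 4.3.3) and Benjamini-Hochberg adjustment at 0.05, with DESeq2 1.42.0 as an alternative. The library is the block because both classes come from 1 well. Same-numbered libraries are those of 1 sex, and sex is a term of the tissue model. On simulated counts for IgA against other kept cells (5262 genes, 200 changed) 77.0% of 2-fold and 93.0% of 4-fold changes were recovered, with 8 false calls. The simulation gave all genes the same dispersion and both classes the same library effects, so it does not give the error rate of the real data. Measures per library were compared by exact sign-flip permutation. Mismatches are edits between a contig's V segment and the germline gene (edlib 1.3.9.post1), a measure added after the files were seen.

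Named genes were, against other kept cells, the 12 largest and 12 smallest log2 fold changes past the threshold with at least 20 CPM and 1 direction in all libraries. In other contrasts they were up to 6 each way whose groups did not overlap. Among all genes tested, 1.09% did not overlap against IgM cells and 1.74% against IgG cells. The share was 33.8% for thymus against bone marrow, 29.6% for spleen against bone marrow, 30.8% for thymus against spleen and 24.5% between sexes. Lack of overlap is thus a weak criterion in the tissue and sex contrasts. Of the lists, Fam46c and Mx1 were not matched to a symbol. Some items are not reported here.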

Additional observations from a re-analysis of the deposited data

Results flagged for a closer look

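Of 34 series of 6 libraries, 5 had an end value whose gap to the rest, as a share of the range, exceeded Dixon's 95% limit, which chance passes in about 1 of 20. The excess of heavy V mismatches in IgA over other kept cells was 7.46 in female thymus. In the IgA sums Bank1 was at 26.3 CPM in male thymus, Spon1 at 143 and Pld4 at 71.4 CPM in female thymus, and Nedd4 at 35.5 CPM in female spleen.

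The IgA difference differed between tissues by edgeR's interaction test in 13 genes. Adjusted p-values were 8.7e-06 for Vim, 5.05e-05 for Ltb and for Gm42047, 9.43e-05 for Ly6k, 0.00271 for H2-Aa and for Tagln2, 0.00759 for Atp1b1, 0.00786 for Gpx3, 0.0103 for Ebf1, 0.0296 for Crip1, 0.0383 for Mt1, and 0.041 for Klf2 and for Fcmr. Ltb, a lymphotoxin chain, was at 31.3 and 13.9 CPM in marrow IgA cells (female, then male) against 127 and 88.1 in other kept cells, and at 125 and 117 in splenic ones against 96.9 and 71.1. Ly6k was at 552 and 139 CPM in IgA cells of bone marrow against 209 and 116 in other kept cells, and lower than in other kept cells in both libraries of spleen and of thymus.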

How the results depend on the processing

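Against other kept cells, 199 genes were called. The count was 98 with DESeq2, 319 with no count filter (116 higher, 203 lower), 8 at an isotype share of 90%, 83 with a leading light chain of 90%, 104 without cells carrying another type's marker, 24 with cells thinned to 1000 UMIs, 335 with cycling cells, 36 with no library block, and 49 to 351 with 1 library left out. Against IgM cells 231 became 136 (DESeq2), 6 (90%), 365 (barcodes in several libraries left out) and 52 to 441 (1 library left out). Against IgG cells 163 became 280 (no filter), 37 (90%) and 61 to 278 (1 library left out). The 13 interaction genes became 1 (DESeq2), 0 by edgeR at 90% (20 at an unadjusted p under 0.05), 8 (free RNA under 20%), 58 (no B cell marker UMI) and 0 to 9. For thymus against bone marrow 26 became 8 (DESeq2), 10 (no filter), 5 (shared barcodes out), 167 (no B cell marker UMI) and 10 to 19; for spleen against bone marrow 15 became 3 (DESeq2) and 1 to 24; for thymus against spleen 8 became 3 (DESeq2), 180 (no B cell marker UMI) and 2 to 15. Male against female, 75 became 35 (DESeq2), 22 (no filter), 11 (shared barcodes out), 23 (no B cell marker UMI) and 3 to 122. Leaving out cells, libraries or genes changes the depth and the genes tested; beyond that the cause was not tested. The tissue and sex contrasts at 90% had no residual degrees of freedom and gave no value. The alternative on B cell marker UMIs was chosen after seeing the data. Of 382 values of the 24 genes named against other kept cells 356 kept their call and 26 lost it, and none reversed.

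At an Igha share of 90% the difference in lambda share turned to -1.24 percentage points, that in CDR3 length to 1.48 nucleotides and that in cells of clones of at least 2 cells to 1.86 points; none of these passed the test in either form. With 1 library left out the differences ranged from -64.1 to 289 UMIs for median depth, 7.92 to 11.1 points for the immunoglobulin share, 4.55 to 9.20 for lambda, -2.26 to -1.48 for free RNA, -0.63 to 0.60 nucleotides for CDR3 length, -13.5 to -3.23 points for clones of at least 2 cells, -15.0 to -7.36 for clones in several tissues, 3.91 to 10.4 for IGHV1 and 1.19 to 2.56 for mismatches. Sums of 10 to 20 cells limit what thymus and male spleen can show.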
